A study of Mus musculus with 8 samples.

Results

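The transcription factors that calcineurin and NFAT set in motion in T cells, and that mark T cell exhaustion, were followed in donor T cells from the spleen after allogeneic hematopoietic cell transplantation (HCT). The members were the genes whose identifier in the deposited tables was Tox, Nr4a1, Nr4a2, Nr4a3, Egr1, Egr2, Egr3, Nfatc1, Nfatc2 or Nfatc3, which gave 10 of 25078 gene rows. All 10 passed the filter on low counts, so each was among the 12428 genes tested, and the lowest count of any member in any library was 87 reads (Egr3, in a STAT3KO CD8 library).

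Lethally irradiated BALB/c recipients received T-cell-depleted bone marrow from WT C57BL/6 mice together with T cells from either WT or STAT3KO C57BL/6 donors, where STAT3KO stands for donors that carry Stat3 fl/fl and CD4-Cre, so that the gene is deleted wherever the CD4 promoter has been active, in CD4 as well as CD8 T cells. RNA was sequenced from CD4 and CD8 donor T cells sorted from the spleen on day 6 after HCT. The 8 libraries formed 4 groups, WT and STAT3KO for each of the CD4 and CD8 T cells, of 2 libraries each, numbered 1 and 2 in the labels, and each library pooled the lymphocytes of 3 recipients. Whether the CD4 and CD8 libraries of 1 genotype and number came from the same recipients is not given in the sources used here, and the tests treat them as independent. The ages of the mice and what the numbers 1 and 2 stand for were not given in the sources used here. No untransplanted T cells were analysed here.

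When a T cell meets its antigen, calcium enters the cell and activates the phosphatase calcineurin, which removes phosphates from NFAT proteins and lets them move into the nucleus. There NFAT, often together with AP-1, induces cytokine genes and further transcription factors, among them the EGR zinc finger proteins and the NR4A orphan nuclear receptors, many of which appear within the first hour as immediate early genes. NFAT acting without AP-1, together with NR4A factors and the HMG-box protein TOX, is known to drive the anergic and exhausted states of T cells that see antigen for a long time, as donor T cells do in an allogeneic host. Whether these genes differ with STAT3 bears on the question the study asked of anergy and exhaustion in donor T cells, for which the spleen served as the counterpart of the liver.

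The library totals ran from 20171396 to 23282757 counts and the TMM factors (edgeR's scaling factors) from 0.982 to 1.03. Levels are given as CPM, counts scaled by TMM to a common library size. Stat3 stood at 428 and 436 CPM in the WT CD4 libraries against 138 and 141 CPM in the STAT3KO CD4 libraries, and at 431 and 436 against 120 and 143 CPM in CD8, so that the deletion left a reduced but not absent signal in both cell types (log2 fold change -1.63, adjusted p 0.000753, for CD4, and -1.72, adjusted p 0.00536, for CD8, by the edgeR quasi-likelihood test). Cd4 and Cd8a separated the sorted cell types in each library. The summed level of the 7 macrophage and monocyte markers was 4.98 to 10.96 CPM in the libraries numbered 1 and 44.8 to 76.1 CPM in those numbered 2. The 6 B cell markers summed to 1.04 to 13.2 CPM, the 7 neutrophil markers to 3.24 to 21.8 CPM and the 7 erythroid markers, 4 of which were at 0 in every library, to at most 5.65 CPM. The 5 dendritic markers summed to 14.8 to 21.8 CPM in the CD4 libraries and 169 to 273 CPM in the CD8 libraries, with 1 of them at 0 in every library. Only 2 of them, Itgax and H2-Aa, passed the filter. Itgax was called higher in CD8 in both genotypes and H2-Aa in neither, so this sum is not read as a share of dendritic cells. In such bulk samples, fewer cells that express a gene and less RNA of that gene per cell cannot be told apart.

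The NR4A genes shared a feature in the RefSeq promoter table (GRCm38.p6), which held 6 of the 10 members (Nr4a1, Nr4a2, Nr4a3, Egr2, Nfatc2 and Nfatc3). In the 300 bases from 250 before to 50 after the start, each of the 3 NR4A promoters held 4 copies of TGACG, the core of the cyclic AMP response element that CREB family factors bind, counted on either strand (CGTCA on the other). Over all 32851 promoters in the table, 20.8% held TGACG at least once and 0.231% held it 4 or more times. The full palindrome TGACGTCA, found in 1.79% of promoters, was in none of the 6. The 3 promoters are shown because these paralogs share the element. Whether it bears on their levels in these libraries was not tested. Capitals mark TGACG or CGTCA, and each run reads 5′ to 3′ on the gene's own strand.
Nr4a1, chr15:101266596-101266895, plus strand: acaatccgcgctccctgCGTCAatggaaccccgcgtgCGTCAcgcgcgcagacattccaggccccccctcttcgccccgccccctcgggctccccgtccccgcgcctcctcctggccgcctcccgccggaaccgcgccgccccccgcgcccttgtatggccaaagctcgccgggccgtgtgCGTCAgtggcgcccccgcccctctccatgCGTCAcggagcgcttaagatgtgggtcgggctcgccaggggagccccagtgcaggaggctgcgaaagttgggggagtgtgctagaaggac
Nr4a2, chr2:57123954-57124253, minus strand: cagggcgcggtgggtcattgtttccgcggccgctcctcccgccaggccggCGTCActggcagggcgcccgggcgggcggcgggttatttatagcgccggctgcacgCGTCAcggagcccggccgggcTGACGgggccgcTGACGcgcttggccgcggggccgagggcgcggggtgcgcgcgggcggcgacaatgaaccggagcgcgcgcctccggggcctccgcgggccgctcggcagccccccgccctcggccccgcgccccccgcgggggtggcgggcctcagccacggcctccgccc
Nr4a3, chr4:48045055-48045354, plus strand: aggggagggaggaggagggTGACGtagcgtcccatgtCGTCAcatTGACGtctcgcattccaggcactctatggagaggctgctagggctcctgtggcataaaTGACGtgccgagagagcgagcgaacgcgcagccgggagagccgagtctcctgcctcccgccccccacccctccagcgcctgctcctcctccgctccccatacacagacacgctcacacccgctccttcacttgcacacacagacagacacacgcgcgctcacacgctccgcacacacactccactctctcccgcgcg

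The same window held no TGACG in Egr2 and Nfatc2 and 1 copy in Nfatc3. GGAAA, the core of NFAT binding sites, was present in 61.3% of all promoters, and occurred 3 times in Nfatc2 and once each in Nr4a2 and Nfatc3. AAAGGTCA, the site NR4A monomers bind, GCGTGGGCG, the EGR site, and TTCNNNGAA, the STAT site, were in none of the 6 windows and in 1.51%, 0.612% and 8.3% of all promoters. The CArG box of serum response factor was likewise in none of the 6 and in 1.63% of all. The share of G and C in the windows ran from 48.7% in Nfatc3, the only one below the median of 52.7% over all promoters, to 81.7% in Nr4a2.

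In deposited RPKM, which divides by exon length and so allows levels to be set side by side between genes, Nr4a1, Nfatc3 and Tox were the most abundant members, with means over the 4 groups of 116, 107 and 100 RPKM. Nfatc1 (51.9), Nr4a2 (42.1), Egr1 (38.9) and Nfatc2 (19.5) followed, and Nr4a3 (6.94), Egr2 (5.70) and Egr3 (4.002 RPKM) were the lowest. Among the 12428 tested genes of each group, Tox and Nfatc3 stood between percentile 92.4 and 96.5, while Egr3 stood at percentile 44.4 in WT CD4 and 19.2 in STAT3KO CD8. The order differed between groups. Nr4a1 led in WT CD4 (158.7 ± 118.6 RPKM, SD, n = 2) and in STAT3KO CD4 (140.7 ± 73.5 RPKM), although in both its libraries overlapped those of Nfatc3. Tox led in STAT3KO CD8 (133.8 ± 16.3 RPKM), above both libraries of Nfatc3 (105.4 ± 5.53 RPKM) there. In WT CD8, Nfatc3 (99.6 ± 6.02), Nr4a1 (92.3 ± 58.8) and Tox (90.5 ± 7.81 RPKM) did not separate beyond their spread.

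The families had unequal makeups. Of the summed RPKM of the 3 NR4A genes, Nr4a1 held 48.3% to 85.4% over the 8 libraries and Nr4a3 held 2.48% to 6.96%. Egr1 held 69.8% to 89.1% of the EGR sum, and Nfatc3, the NFAT member most abundant in these cells, held 53.6% to 65.5% of the NFAT sum. Nfatc2, which like Nfatc3 is made in resting T cells, held 10.0% to 13% of it, and Nfatc1, whose short form is induced by NFAT itself, held 24.3% to 33.5%.

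**Figure D1:**
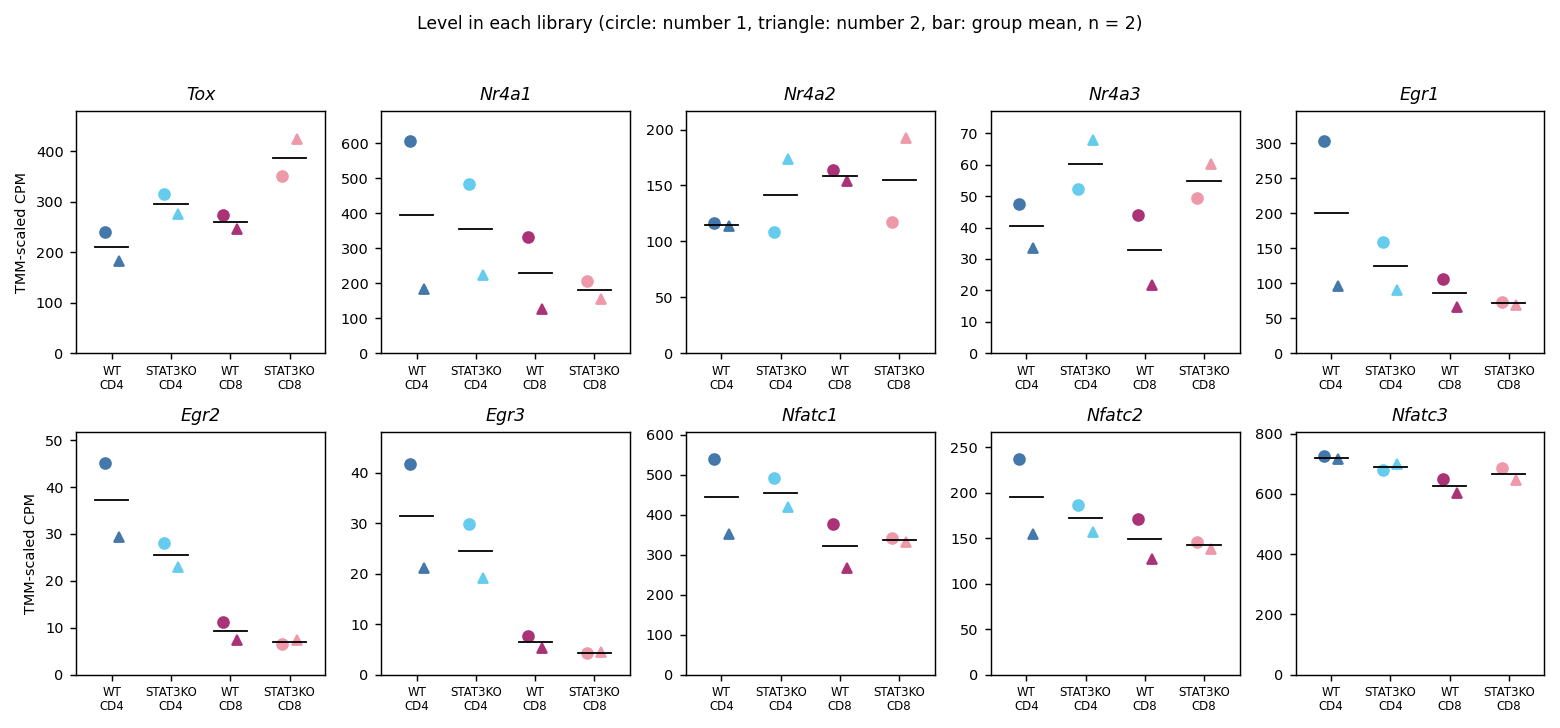
Level of each of the 10 members (y axis, TMM-scaled CPM, from 0) in the 8 libraries, by group on the x axis, with circles for libraries numbered 1, triangles for those numbered 2 and bars for the mean of the 2. Egr2 and Egr3 are low in all 4 CD8 libraries, Tox is higher in both STAT3KO libraries than in both WT libraries of each cell type, and Nr4a1 is higher in library 1 than in library 2 of every group.

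Egr2 and Egr3 were lower in CD8 than in CD4 donor T cells of both genotypes, and were the members called between the cell types. Egr2, a zinc finger factor that NFAT induces and that restrains T cell activation, stood at 45.1 and 29.3 CPM in WT CD4 and 28.1 and 23.0 CPM in STAT3KO CD4. In WT CD8 it was 11.2 and 7.29 CPM, and in STAT3KO CD8 6.56 and 7.40 CPM, so no CD8 library reached the lowest CD4 library. Such a separation, lower in CD8, was seen for 30% of all genes in WT and 28.7% in STAT3KO. The log2 fold change of CD8 against CD4 was -2.01 ± 0.27 (SE, n = 2 per group) in WT, with an edgeR adjusted p of 0.00162, and -1.87 ± 0.27 in STAT3KO, with an edgeR adjusted p of 0.00538.

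Egr3, the paralog that overlaps with Egr2 in function, showed the same separation. Its levels were 41.8 and 21.1 CPM in WT CD4, 29.9 and 19.2 CPM in STAT3KO CD4, 7.74 and 5.22 CPM in WT CD8, and 4.20 and 4.51 CPM in STAT3KO CD8. CD8 was lower by a log2 fold change of -2.28 ± 0.37 (SE) in WT (edgeR adjusted p 0.00387) and -2.49 ± 0.38 in STAT3KO (edgeR adjusted p 0.00659). Within the libraries numbered 1 the WT ratio was -2.42 for Egr3 and -2.01 for Egr2, and within those numbered 2 it was -1.99 for both genes. Without STAT3KO CD8 library 1, both STAT3KO calls were lost, at -1.80 for Egr2 (edgeR adjusted p 0.0526) and -2.45 for Egr3 (edgeR adjusted p 0.0600).

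Egr1, the immediate early EGR factor that MAP kinase signalling induces, was spread widely within groups. It stood at 303 and 96.7 CPM in WT CD4, 160 and 90.8 CPM in STAT3KO CD4, 106 and 65.9 CPM in WT CD8, and 73.5 and 69.6 CPM in STAT3KO CD8. The WT groups overlapped, and the difference of CD8 from CD4 did not pass in WT (log2 fold change -1.22, 95% interval -2.39 to -0.05, edgeR adjusted p 0.125) or in STAT3KO (-0.81, 95% interval -1.97 to 0.36, edgeR adjusted p 0.358). Single WT CD4 libraries decided the WT value, which was -1.84 without library 2 (edgeR adjusted p 0.0142) and -0.19 without library 1 (edgeR adjusted p 0.772).

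Egr2 and Egr3 were thus 2 of 10 members called between cell types, both lower in CD8, in each genotype. Over all genes tested, 23.8% were called in WT (11.6% lower in CD8) and 12.5% in STAT3KO (6.67% lower). The other 8 members were not called by this test in either genotype. With the library number added to the fit as a block, 6 members were called in WT and 5 in STAT3KO, among 5232 and 3689 of all genes. Tox was 0.30 ± 0.17 (SE, log2) higher in CD8 in WT and 0.39 ± 0.17 higher in STAT3KO, with edgeR adjusted p of 0.236 and 0.174, and its libraries did not overlap in either, as for 29.2% and 29.6% of all genes. Nr4a1 had log2 values of -0.78 and -0.98, but the 95% interval in WT ran from -2.25 to 0.69. The NFAT genes had values from -0.47 to -0.20 in WT and from -0.43 to -0.05 in STAT3KO, all below 0 and none called.

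**Figure D2:**
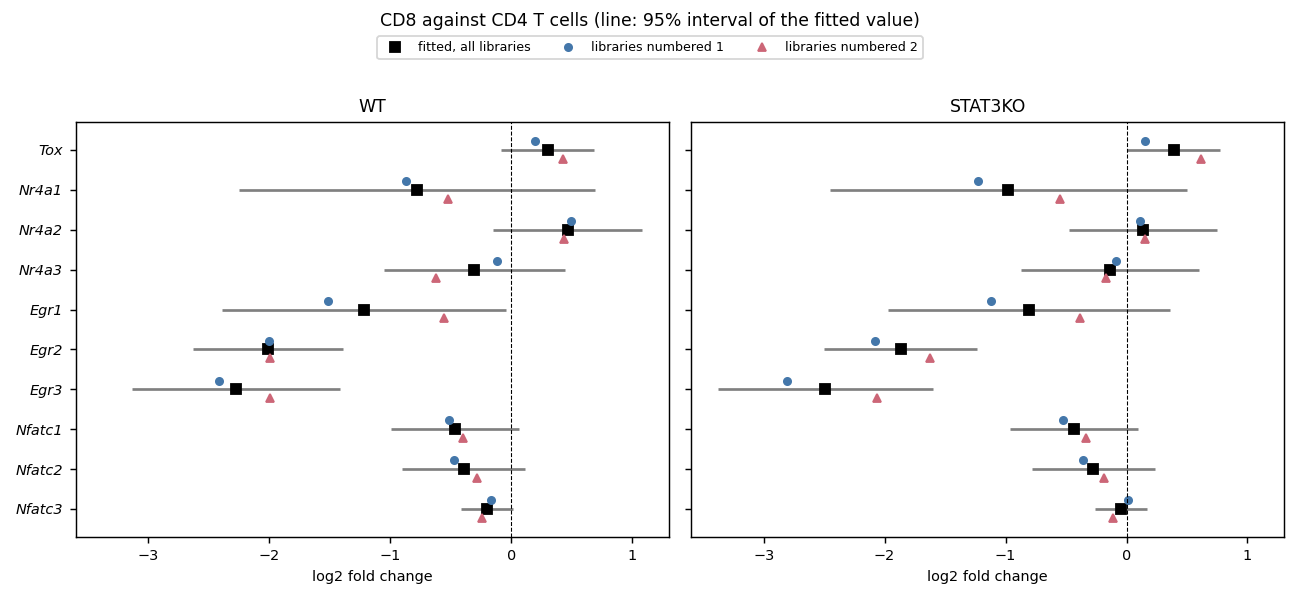
Log2 fold change of CD8 against CD4 T cells (x axis) for each member (y axis) in WT (left) and STAT3KO (right), with the value fitted on all libraries as a square, its 95% interval as a line, and the ratios within libraries numbered 1 (circles) and 2 (triangles). Egr2 and Egr3 lie between -1.87 and -2.49 with intervals that stay below 0 in both genotypes, and the next lowest value is that of Egr1 in WT (-1.22).

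Genes around the members were compared between cell types through lists chosen for their known roles. Among the other genes of the families, Tox2, a paralog of Tox, was called lower in CD8 in both genotypes (log2 -2.44 ± 0.17 in WT and -0.69 ± 0.17 in STAT3KO, edgeR adjusted p 0.000157 and 0.0396), and it was the 1 gene called of 6 tested in each, where the median was -0.44 in WT and -0.43 in STAT3KO. The median over all genes tested was 0.00 in both. Tox3 and Nfatc4, with 0 to 3 counts a library, were left untested by the filter. Of the 38 immediate early and stress genes, 12 were called lower in CD8 and 0 higher in WT (31.6%, median -0.67). In STAT3KO 7 were called lower and 0 higher (18.4%, median -0.54). Values were below 0 for 33 of the 38 in WT and for 35 in STAT3KO, so lower values in CD8 were not particular to the EGR genes.

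Calcium entry and calcineurin had 24 tested genes, of which WT CD8 had 3 called higher and 4 lower, with a median of -0.07. Among the genes called higher were Ppp3ca, a catalytic subunit of calcineurin (0.88), and Calm3 (0.52). Those called lower were Itpr2 and Itpr1, receptors that release calcium from the endoplasmic reticulum (-1.20 and -0.49), Plcg1, the phospholipase upstream of them (-0.71), and Orai1, the calcium channel of the plasma membrane (-0.58). In STAT3KO, Orai1 (-0.82), Itpr2 (-0.75) and Itpr1 (-0.51) were called lower.

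Of 21 tested inhibitory receptor and exhaustion genes, CD8 had 7 called higher and 8 lower in WT (71.4% called, median -0.17), and 5 higher and 8 lower in STAT3KO (61.9%, median -0.19). Eomes, a T-box factor of effector and exhausted CD8 T cells, was higher by 3.80 in WT and 2.27 in STAT3KO, the inhibitory receptor Havcr2 by 2.16 and 1.11, and Cd160 by 2.09 and 2.46. The costimulatory receptor Tnfrsf9 was called in both as well (1.15 and 1.01). Prdm1, which encodes BLIMP-1, was called in WT at 1.21 and had 0.29 in STAT3KO (edgeR adjusted p 0.360). The receptor Btla (-2.28 in WT and -1.61 in STAT3KO), Tcf7, which encodes TCF-1 of memory and stem-like T cells (-2.06 and -1.39), and Ikzf2, which encodes Helios (-1.95 and -1.83), were lower in both. Slamf6 (-1.60 and -1.18) and Cd200r1 (-0.77 and -1.20) were also called lower in both.

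Of 24 tested genes known as targets of NFAT and EGR factors, 6 were called higher and 9 lower in CD8 in WT (62.5% called), and 5 higher and 6 lower in STAT3KO (45.8%). Their medians were -0.20 and -0.06. Crtam, an adhesion receptor of cytotoxic T cells, was higher in CD8 by 3.78 in WT and 4.73 in STAT3KO, the chemokine Xcl1 by 3.69 and 3.02, Nrgn by 2.74 and 1.68 and Ndrg1 by 1.54 and 0.94. Cd40lg, the helper ligand that also defines CD4 T cells, was lower by -5.68 and -5.54. The cytokine genes Il2, Il3 and Il4 were called lower in CD8, but they were low throughout. Il2, the largest of the 3 in STAT3KO CD4 (3.05 and 2.93 CPM), was at 5.29 and 3.59 CPM in WT CD4 and at or below 0.303 CPM in the CD8 libraries. Il3 and Il4 were at most 0.135 CPM in CD8, near or under the floor of 3 counts (0.129 to 0.149 CPM), so that no fold is given for them.

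STAT3KO against WT gave 0 of 10 members called in CD4 and 0 of 10 in CD8 by the edgeR quasi-likelihood test. Over all genes tested, 11.6% were called in CD4 and 2.07% in CD8. In CD4 the unadjusted p was under 0.05 for 1 member (Tox), against 27.5% of all genes, and in CD8 again for Tox alone, against 19.3%. The members' median log2 fold change was -0.11 in CD4 and -0.05 in CD8, beside 0.02 and -0.01 over all genes. This fit had no term for the library number, so differences between the numbers entered its spread. With the number added as a block, edgeR called Tox in CD4 (adjusted p 0.0174) and CD8 (0.0133) and Egr2 in CD4 (0.0312). That fit called 3747 of all genes in CD4 and 2258 in CD8.

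Tox came nearest to a call. It was 240 and 183 CPM in WT CD4 and 316 and 276 CPM in STAT3KO CD4, and 274 and 246 CPM in WT CD8 against 351 and 424 CPM in STAT3KO CD8. Both STAT3KO libraries exceeded both WT libraries in each cell type, a separation in this direction that 28.5% of all genes showed in CD4 and 24.9% in CD8. The log2 fold change was 0.49 ± 0.17 (SE, n = 2 per group) in CD4, with a 95% interval of 0.10 to 0.87 and an edgeR adjusted p of 0.105, and 0.58 ± 0.17 in CD8, with a 95% interval of 0.19 to 0.96 and an edgeR adjusted p of 0.117. The ratio was above 0 within both numbers, at 0.40 and 0.60 in CD4 and 0.36 and 0.78 in CD8. With DESeq2 in place of edgeR, Tox passed in both cell types, at 0.47 in CD4 (adjusted p 0.0426) and 0.57 in CD8 (adjusted p 0.0193). In GENCODE, 260 exon bases of Tox overlap Gm11802 on the opposite strand, and the strand setting of the counting was not given in the sources used here.

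Nr4a3, the least abundant NR4A receptor, was also above WT in every STAT3KO library of the same cell type. Such a separation was seen for 28.5% of all genes in CD4 and 24.9% in CD8. Nr4a3 was 47.6 and 33.7 CPM in WT CD4 against 52.4 and 67.7 CPM in STAT3KO CD4. In CD8 it was 44.0 and 21.8 CPM in WT against 49.3 and 60.1 CPM in STAT3KO. The log2 fold change was 0.56 ± 0.32 (SE, edgeR adjusted p 0.309) for CD4 and 0.73 ± 0.32 (edgeR adjusted p 0.266) for CD8. The ratio was small in the libraries numbered 1 (0.14 and 0.16) and large in those numbered 2 (1.01 and 1.46).

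Nr4a1 and Nr4a2 had STAT3KO ratios below 0 within number 1 and above 0 within number 2, each ratio setting a single library against another. Nr4a1, which encodes NUR77 and is widely used as a reporter of recent T cell receptor signals, was 605 and 184 CPM in WT CD4 and 483 and 225 CPM in STAT3KO CD4, with groups that overlapped fully. In CD8 it was 332 and 128 CPM in WT and 206 and 154 CPM in STAT3KO. Its STAT3KO ratio was -0.33 in CD4 and -0.69 in CD8 within number 1, and 0.29 and 0.27 within number 2. Nr4a2, the NURR1 gene, was 116 and 114 CPM in WT CD4, 109 and 174 CPM in STAT3KO CD4, 164 and 154 CPM in WT CD8, and 117 and 193 CPM in STAT3KO CD8. Its STAT3KO ratio was -0.10 and -0.48 within number 1, and 0.61 and 0.32 within number 2. The intervals were wide, for Nr4a1 in CD4 from -1.62 to 1.31 on the log2 scale, and do not show that these genes are alike in WT and STAT3KO.

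The EGR genes had fitted values below 0 in both cell types, but not within every number. For Egr2 the log2 fold change was -0.54 ± 0.25 (SE) in CD4 (95% interval -1.13 to 0.05, edgeR adjusted p 0.217) and -0.40 ± 0.28 in CD8 (edgeR adjusted p 0.494). Its ratios within numbers 1 and 2 were -0.68 and -0.35 in CD4 and -0.76 and 0.02 in CD8. Without WT CD8 library 1 its CD8 value was -0.07, and without WT CD4 library 1 its CD4 value was -0.22. In CD4 both STAT3KO libraries were below both WT libraries, as for 25% of all genes (24.8% in CD8), and in CD8 the groups overlapped. Egr1 had -0.68 ± 0.50 in CD4 and -0.26 ± 0.50 in CD8, with overlap in both, and ratios within numbers 1 and 2 of -0.93 and -0.09 in CD4 and -0.53 and 0.08 in CD8. Egr3 had -0.36 ± 0.34 in CD4, with overlap, and -0.57 ± 0.39 in CD8, without. Its ratios within numbers 1 and 2 were -0.48 and -0.14 in CD4 and -0.87 and -0.21 in CD8.

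The NFAT genes had small fitted differences. Nfatc1 was 538 and 353 CPM in WT CD4, 491 and 419 CPM in STAT3KO CD4, 378 and 267 CPM in WT CD8, and 341 and 332 CPM in STAT3KO CD8. Nfatc2 was 237 and 154, 186 and 157, 171 and 127, and 146 and 138 CPM in the same order of groups. Nfatc3 was the steadiest member, at 726 and 714, 679 and 700, 648 and 604, and 686 and 648 CPM. The STAT3KO values of these 3 genes lay between -0.19 and 0.09 in both cell types. For Nfatc3 the 95% interval was -0.28 to 0.15 in CD4 and -0.13 to 0.31 in CD8. In GENCODE, Nfatc3 shares 219 exon bases with Esrp2 on the opposite strand, whose own counts were 0 to 18 reads.

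**Figure D3:**
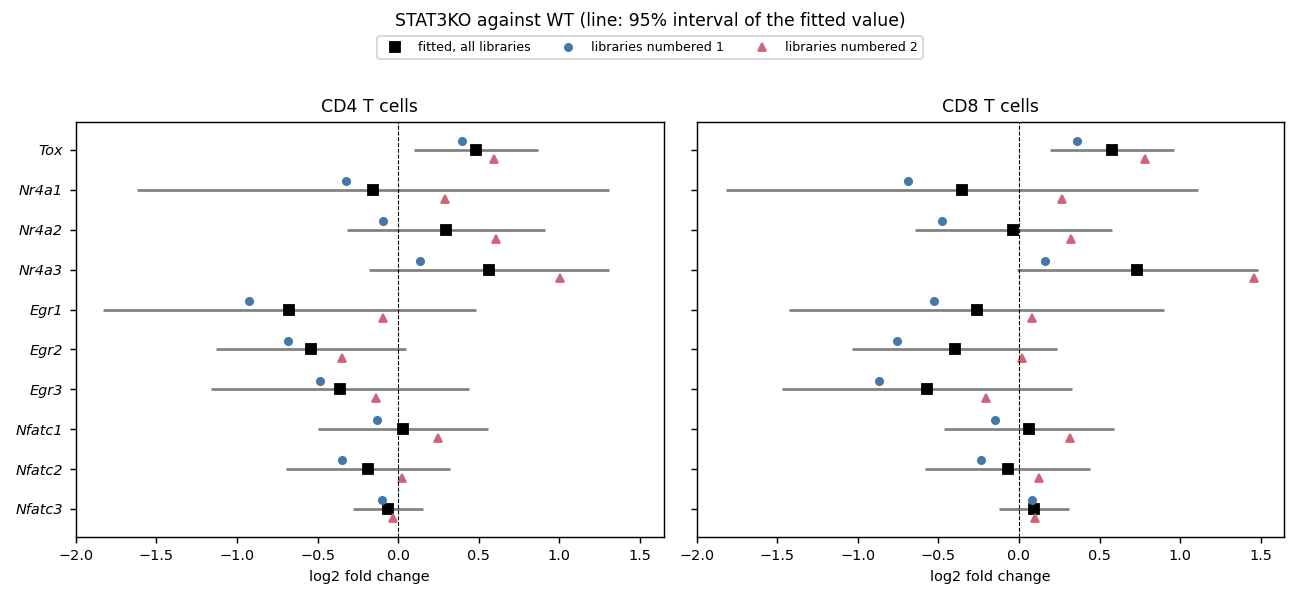
Log2 fold change of STAT3KO against WT (x axis) for each member (y axis) in CD4 (left) and CD8 (right) T cells, with the fitted value as a square, its 95% interval as a line, and the ratios within libraries numbered 1 (circles) and 2 (triangles). The interval stays above 0 for Tox in both panels, although its edgeR adjusted p is 0.105 and 0.117. The triangle lies to the right of the circle for every member, by little for Nfatc3. How many of all genes lie that way was not counted, and each circle or triangle sets a single library against another.

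Whether the STAT3KO difference itself differed between CD8 and CD4 was tested as an interaction. It was called for 0 of 10 members and for 0% of all genes by edgeR, with an unadjusted p under 0.05 for 982 genes (7.9%) and for 0 members, whose lowest unadjusted p was 0.276 (Nfatc3). DESeq2 called 175 genes and 0 members.

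The same lists were read for STAT3KO against WT, beside 11.6% of all genes called in CD4 and 2.07% in CD8. In CD4, Tox2 (-2.65 ± 0.18, edgeR adjusted p 0.000729) and Nab1, a corepressor that binds EGR proteins (-0.45 ± 0.10, edgeR adjusted p 0.0272), were lower among 6 other family genes tested (median -0.36). Tox2 fell from 285 and 228 CPM in WT CD4 to 42.9 and 38.9 CPM in STAT3KO CD4. In CD8, Tox2 was lower by -0.89 ± 0.17 (edgeR adjusted p 0.0476), the 1 gene called of the 6 (median -0.03). Tox and Tox2 therefore had fitted values on opposite sides of 0 in both cell types.

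Of the 24 calcium and calcineurin genes, Ppp3ca rose in CD4 (0.90 ± 0.16, edgeR adjusted p 0.0115) and Rcan3, of a family that inhibits calcineurin, fell (-0.64 ± 0.12, edgeR adjusted p 0.0139), which made 8.33% of the list. The median of the list was -0.01 in CD4 and -0.03 in CD8, where none was called by edgeR (adjusted p).

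Of the 21 inhibitory receptor and exhaustion genes, 5 were called higher and 6 lower in STAT3KO CD4 (52.4%, median -0.01). Eomes (2.03), the ectonucleotidase gene Entpd1 (1.63), Cd200r1 (1.08) and Prdm1 (0.94) rose. Tcf7 (-1.79), the receptors Lag3 (-1.23) and Btla (-1.18), and Tigit (-0.82) fell. In CD8, Tcf7 (-1.12) and Lag3 (-0.72) fell and none rose (9.52% called, median -0.11). Pdcd1, which encodes PD-1, was not called in either cell type. It stood at 340 and 233 CPM in WT CD4 and 314 and 254 CPM in STAT3KO CD4, and at 591 and 418 CPM in WT CD8 and 494 and 441 CPM in STAT3KO CD8; it was named after its values were seen.

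Of the 24 target genes, 2 rose and 3 fell in STAT3KO CD4. Fasl, the death ligand (1.39), was among those that rose, while Il4 (-2.58), Socs3, a feedback inhibitor that STAT3 induces (-1.65), and Crtam (-1.27) fell, with 20.8% called and a median of -0.06. In CD8, Socs3 (-1.41), Ndrg1 (-0.88) and Nrgn (-0.77) fell, with 12.5% called and a median of -0.03. Of the 38 immediate early and stress genes, Gadd45b (-0.96) fell in CD4 and no gene passed in CD8 (edgeR adjusted p). In each cell type 30 of the 38 had values below 0, with medians of -0.39 in CD4 and -0.26 in CD8, beside 0.02 and -0.01 over all genes.

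The libraries numbered 2 and those numbered 1 differed in several members, NR4A, EGR and NFAT genes among them. In a fit with a mean for each group plus the number, 5 of 10 members were called, and each was lower in the libraries numbered 2. Over all genes 23.1% were called, 12.4% lower and 10.7% higher. This comparison set 4 libraries against 4, where each genotype comparison set 2 against 2. The titles give the libraries of the 2 numbers separate runs of identifiers, and whether these were separate transplantations, sorts or sequencing runs is not given in the sources used here.

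Nr4a1 had the largest difference, with a log2 value of -1.16 ± 0.16 (SE) and an edgeR adjusted p of 0.00126. It was lower in library 2 of every group, by -1.72 in WT CD4, -1.10 in STAT3KO CD4, -1.38 in WT CD8 and -0.42 in STAT3KO CD8. A ratio below 0 in 4 of 4 groups was found for 22.6% of all genes. Egr1 followed at -0.82 ± 0.19 (edgeR adjusted p 0.0119), with group ratios of -1.65, -0.81, -0.68 and -0.08 in the same order. Egr3 had -0.61 ± 0.14 (edgeR adjusted p 0.0125), below 0 in all groups but STAT3KO CD8 (0.10).

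Nfatc1 and Nfatc2 had the same fitted difference of -0.34, with edgeR adjusted p of 0.0191 and 0.0148, and were lower in library 2 of all 4 groups. Egr2 (-0.37, edgeR adjusted p 0.0502), Nr4a3 (-0.19), Tox (-0.12) and Nfatc3 (-0.04) were not called. Nr4a2 was the 1 member with a value above 0 (0.32 ± 0.13, edgeR adjusted p 0.101). Its ratio was 0.68 in STAT3KO CD4 and 0.72 in STAT3KO CD8, and -0.03 and -0.09 in the WT groups, so that in WT CD4, where its paralog Nr4a1 was 605 and 184 CPM, Nr4a2 was 116 and 114 CPM. Nr4a1 accordingly held 85.4%, 82.9%, 70.7% and 66.2% of the NR4A RPKM in the libraries numbered 1 and 65.5%, 59.5%, 51.1% and 48.3% in those numbered 2, and Nr4a2 held 12.1% to 28% and 30.0% to 45.7%.

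Leaving out a library ended some of these calls with little change in the fold. Without either STAT3KO CD4 library, Egr1 was at -0.82 (edgeR adjusted p 0.0601 and 0.0608), Egr3 at -0.59 (0.0763 and 0.0750) and Nfatc1 at -0.38 and -0.39 (0.0572 and 0.0580), and without library 2 of that group Nfatc2 was at -0.38 (0.0505). Without either WT CD8 library, Nfatc1 was at -0.29 and -0.30 (edgeR adjusted p 0.0974 and 0.0954) and Nfatc2 at -0.31 and -0.32 (0.0736 and 0.0712). Other members gained a call. Without either STAT3KO CD8 library, Egr2 was called at -0.51 and -0.50 (edgeR adjusted p 0.00388 and 0.00401) and Tox at -0.25 (0.0146 and 0.0159), and without either WT CD4 library Nr4a2 was called higher, at 0.43 and 0.42 (0.0276 and 0.0295). With all libraries, DESeq2 did not call Egr1 (-0.81, adjusted p 0.0520) and limma on RPKM did not call Egr3 (-0.43, adjusted p 0.0635). Nr4a1 lay between -1.41 and -0.98 in the 8 fits that left out a library. A group left with a single library adds nothing to this comparison. Leaving out either library of a group is therefore nearly the same check, and the 8 fits are not separate ones.

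**Figure D4:**
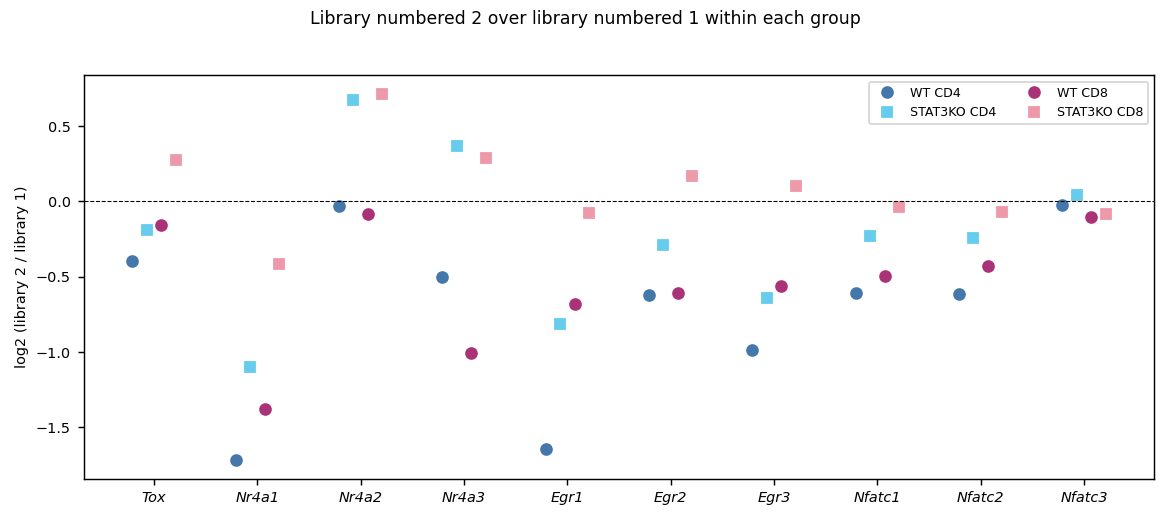
Log2 ratio of the library numbered 2 to the library numbered 1 (y axis) for each member (x axis) in the 4 groups, with circles for WT and squares for STAT3KO. Nr4a1 lies below 0 in every group, from -1.72 to -0.42, and both STAT3KO squares of Nr4a2 lie near 0.7 while its WT circles lie near 0.

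Other genes that answer stimulation or stress moved with the numbers. Of the 38 immediate early and stress genes, 6 were called higher and 17 lower in the libraries numbered 2 (60.5%, median -0.24). Among the lower genes were Jun (-1.83 ± 0.09) and the heat shock genes Hspa1a (-8.47 ± 0.48), Hspa1b (-8.04 ± 0.57) and Hsph1 (-1.92 ± 0.31). Hspa1a, an inducible chaperone, was at 1031, 603, 409 and 276 CPM in the libraries numbered 1 and at 0.284, 3.11, 0.126 and 2.62 CPM in those numbered 2, with WT before STAT3KO and CD4 before CD8. Hspa1a and Hspa1b are near-identical copies, and the counting could have split or dropped reads they share. Among the higher genes were Maff (1.03), the phosphatase genes Dusp6 (0.49) and Dusp5 (0.36), and Tnfaip3, an NF-κB inhibitor (0.38).

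The level of Hspa1a in the libraries numbered 1 fell from WT CD4 through STAT3KO CD4 and WT CD8 to STAT3KO CD8. Nr4a1, the 3 EGR genes, Nfatc1 and Nfatc2 had that order there, and Tox, Nr4a2, Nr4a3 and Nfatc3 did not. Jun had that order as well, at 1164, 724, 523 and 358 CPM. How many of all genes had it was not counted. Any gene that was lower in CD8 and, by less, in STAT3KO would have it, so the order is not read as a link to Hspa1a. The members that had it were correlated with each other over the 8 libraries (r from 0.70 to 0.99), so they are not independent matches. All 7 macrophage and monocyte markers were called higher in the libraries numbered 2. The part of heat shock, of these markers, or of library handling in the members' differences was not tested.

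Of the other lists, the family genes Egr4 (-1.82) and Nab2, an EGR corepressor (-0.45), were lower and Tox4 (0.24) higher in the libraries numbered 2 (3 of 6 called, median -0.06). Egr4 was at most 2.20 CPM. Of the calcium and calcineurin genes, 2 were higher, Orai3 (0.32) and Calm2 (0.24), and 6 lower, led by Rcan1, an NFAT-induced inhibitor of calcineurin (-0.44), Cabin1 (-0.29), Stim1 (-0.27) and Calm3 (-0.21), with 33.3% called and a median of -0.04. Of the inhibitory receptor and exhaustion genes, Ctla4 (0.47) and Slamf6 (0.33) were higher and Id3 (-1.56), Eomes (-0.42), Pdcd1 (-0.38) and Havcr2 (-0.29) lower, with 28.6% called and a median of -0.08. Of the target genes, Socs3 (0.33) was higher and 8 were lower, led by the chemokine genes Xcl1 (-1.01), Ccl3 (-0.97) and Ccl4 (-0.84) and by Ifng (-0.54), with 37.5% called and a median of -0.17.

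**Figure D5:**
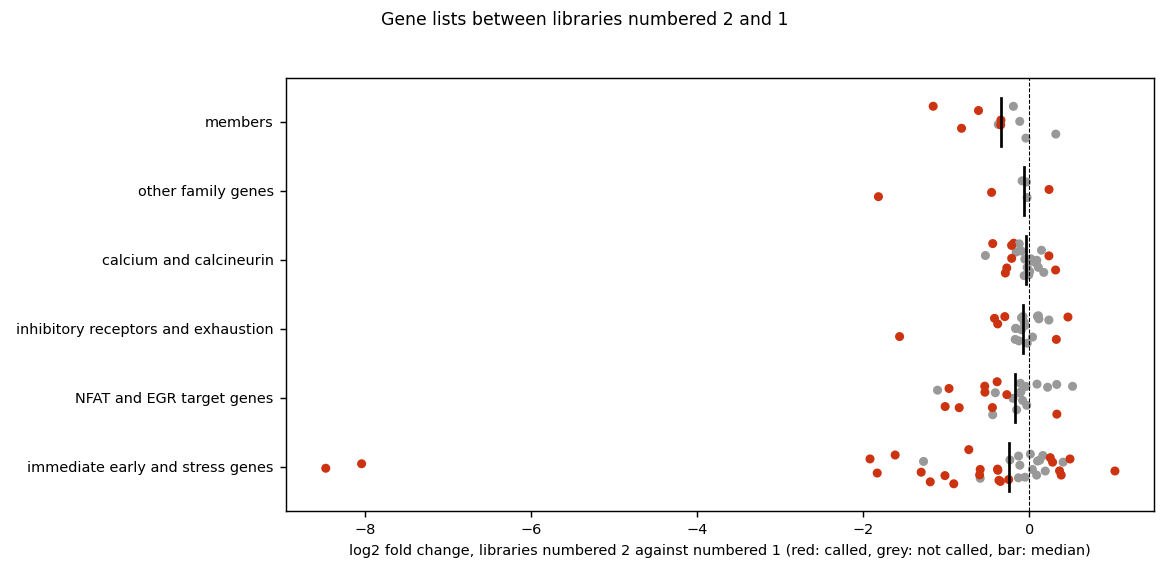
Log2 fold change of libraries numbered 2 against those numbered 1 (x axis) for the tested genes of 6 lists (y axis), with called genes in red, others in grey and a bar at the median of each list. The members' median is -0.34, the lowest of the 6, and Hspa1a (-8.47) and Hspa1b (-8.04) stand far to the left of the other stress genes.

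Because the STAT3KO ratios of the NR4A genes differed between the numbers, that difference was fitted across all genes with a term for the genotype effect by number, a test added after the data had been seen. The log2 ratio of STAT3KO to WT was higher in the libraries numbered 2 for Nr4a3 (log2 difference 1.08 ± 0.15 SE, edgeR adjusted p 0.0102) and Nr4a2 (0.75 ± 0.10, edgeR adjusted p 0.00611). These were 2 of 10 members, where 0.861% of all genes were called (0.7% higher). For Nr4a2 the ratios were below 0 within number 1, by only -0.10 in CD4, and above 0 within number 2. The test is of a difference between the numbers and not of a change in direction. For Nr4a1 the value was 0.79 ± 0.18 (edgeR adjusted p 0.0764). The values of the other 7 members were above 0 as well, from 0.04 for Nfatc3 to 0.72 for Egr1, and none was called. How many of all genes lay above 0 was not counted, and Nfatc3 fell below 0 in some fits that left out a library. This fit left 2 residual degrees of freedom, each STAT3KO ratio in it rests on 1 library a side in each cell type, and its p-values are too small if CD4 and CD8 libraries of 1 genotype and number share recipients.

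The members' patterns over the 8 libraries fell along these same differences. As a description, Pearson's r of log2 CPM was 0.99 between Egr2 and Egr3, 0.98 between Egr1 and Nfatc2 and 0.96 between Nr4a1 and Nfatc2, over 8 libraries that share cell type and number. Nr4a1 and Nr4a2 had r of -0.50, and Tox had r of -0.57 with Egr2 and 0.56 with Nr4a3. Outside the members, in a search of 8748 well-expressed genes (log2 CPM averaging 3 or more), those most like Nr4a1 were Camkk2 (0.994), Hk1 (0.983) and Rptor (0.978). Tox was most like Tmem263 (0.985), Slc25a40 (0.980) and Ankrd10 (0.978), Nr4a3 like Icam2 (0.982), Fubp1 (0.945) and Gtpbp8 (0.932), and Nr4a2 like G3bp1 (0.938), Clp1 (0.918) and Gdap2 (0.917). For the EGR genes, Egr1 was most like Zfp703 (0.989), Itpripl2 (0.987) and Akap10 (0.986), Egr2 like Nf1, Sh3rf1 (both 0.990) and Ncoa3 (0.989), and Egr3 like Tbl1x (0.995), Heg1 (0.993) and Jade2 (0.987). Among the NFAT genes, Nfatc1 was most like Ubr4 (0.990), Rfx1 (0.985) and Kdm3b (0.983), Nfatc2 like Zfp703 (0.978), Itpripl2 and Tsc22d2 (both 0.972), and Nfatc3 like Slc17a5 (0.957), Ccpg1 (0.954) and Malt1 (0.949). These values were picked as the highest of the search and carry no test.

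All 10 members are protein-coding genes. In the deposited tables (mm10) Tox lies on chr4:6687386-6990723, Nr4a1 on chr15:101266846-101274794, Nr4a2 on chr2:57107226-57124003 and Nr4a3 on chr4:48045305-48086446. Egr1 lies on chr18:34861207-34864956, Egr2 on chr10:67535499-67542188 and Egr3 on chr14:70077317-70082613. Nfatc1 lies on chr18:80606205-80713071, Nfatc2 on chr2:168476410-168601657 and Nfatc3 on chr8:106058818-106130537. Counts were summed over all exons of a gene, so the short and long forms of Nfatc1 were not told apart.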

How the data were processed

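RNA of sorted H-2Kb+ TCRb+ CD4+ or CD8+ splenic donor T cells was sequenced as 51 bp single-end reads. The authors aligned reads to mm10 with STAR (v2.7) and deposited raw counts per RefSeq gene from HTSeq-count (v0.11), together with RPKM, which they divided by exon length. The labels name a SMARTER kit and an adipogenic cell line, the methods a stranded KAPA kit. The strand setting is not given in the sources used here. Counts were tested with the edgeR quasi-likelihood test (edgeR 4.0.16, R 4.3.3) on all 8 libraries, with TMM factors, a minimum count of 10 (filterByExpr by group), 1 mean per group and Benjamini-Hochberg adjustment over 12428 genes. A gene was called at an adjusted p below 0.05. The SE follows from the F statistic, and 95% intervals from its degrees of freedom. Alternatives were DESeq2 (1.42.0), limma (3.58.1) on log2 of the deposited RPKM plus 1, other scalings, no filter, 1 cell type at a time, a replicate block and leaving out each library. On counts simulated for the CD4 comparison with 12428 genes, 79% of 2-fold and 100% of 4-fold changes were recovered. The changes were planted only in genes above a minimum mean CPM, and these shares are averages that do not hold for each member. The SE of the log2 fold change in that comparison ran from 0.09 for Nfatc3 to 0.63 for Nr4a1 among the members.

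The members and gene lists were chosen with earlier results of these data known. Named in the text were all members, up to 4 called genes per list and direction by size of change, Stat3 and coreceptors, and the 3 genes most like each member. A few genes that the rule names are not reported here. Each library is a pool, with 2 pools a group. The edgeR p-values rest on the spread between pools within groups, estimated over all groups together and drawn toward that of other genes. In fits with the library number, they rest on the spread left after that term.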

Additional observations from a re-analysis of the deposited data

Results flagged for a closer look

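The STAT3KO effect on Nr4a2 and on Nr4a3 differed between the libraries numbered 2 and those numbered 1, by an edgeR test of that difference added after the data had been seen. For Nr4a2 the log2 difference was 0.75 ± 0.10 (SE, edgeR adjusted p 0.00611), from within-number ratios of STAT3KO to WT of -0.10 (number 1) and 0.61 (number 2) in CD4 and -0.48 and 0.32 in CD8. For Nr4a3 it was 1.08 ± 0.15 (edgeR adjusted p 0.0102), from ratios of 0.14 and 1.01 in CD4 and 0.16 and 1.46 in CD8. Heat shock genes and macrophage markers also differed between the numbers, and their part in these values was not tested. The test takes CD4 and CD8 libraries of 1 genotype and number as independent, and they may share recipients.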

How the results depend on the processing

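Of 960 values of members under the alternatives, 860 kept their direction and side of the threshold, 39 gained a call, 15 lost one and 46 turned direction. All 46 came from fits that left out a library. With DESeq2 1 member (Tox) was called with STAT3KO in CD4 and 1 in CD8, and 845 genes in CD8 and 175 for the difference between cell types, against 257 and 0 in edgeR. Without the filter, 454 genes were called in CD8 and 44 for that difference. RPKM with limma called 13 for it, and the 4 CD8 libraries alone called 37 genes with STAT3KO. For the STAT3KO effect by number, scaling to total counts called 55 genes. The largest shift of the all-gene median under another scaling was -0.042 (log2, total counts).

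The same number in different groups may or may not mark a shared origin. Deviations of same-numbered libraries from their group means correlated at 0.42 to 0.67. With a replicate block for the number, 2 members were called with STAT3KO in CD4 (Tox, adjusted p 0.0174, and Egr2, 0.0312, edgeR) and 1 in CD8 (Tox, 0.0133), and 6 between cell types in WT (Nr4a1, Egr1, Nfatc1 and Nfatc2 beside Egr2 and Egr3) and 5 in STAT3KO (Tox, Nr4a1 and Nfatc1 beside them). Added calls between cell types had adjusted p of 0.00654 to 0.0402. The replicate block called 3747 genes with STAT3KO in CD4, 2258 in CD8, 403 for their difference, 5232 between cell types in WT and 3689 in STAT3KO.

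Leaving out each library in turn called 412 to 1307 genes with STAT3KO in CD4, 7 to 224 in CD8, 1546 to 2598 between cell types in WT, 457 to 1554 in STAT3KO, 1366 to 3343 between the numbers and 29 to 467 for the STAT3KO effect by number. A group left with 1 library was assumed to vary like the others. Members called ranged from 2 to 3 between cell types in WT, 0 to 2 in STAT3KO, 1 to 7 between the numbers and 2 to 6 for the effect by number. The members that turned direction had these ranges of log2 fold change, none of them with a call on either side. With STAT3KO in CD4 these were Nr4a1 -0.83 to 0.92, Nr4a2 -0.082 to 0.57, Egr1 -1.28 to 0.35, Egr3 -0.78 to 0.19, Nfatc1 -0.25 to 0.34 and Nfatc2 -0.47 to 0.13. In CD8 they were Nr4a1 -0.89 to 0.48, Nr4a2 -0.45 to 0.28, Egr1 -0.57 to 0.11, Nfatc1 -0.17 to 0.32 and Nfatc2 -0.28 to 0.15. For the difference between cell types they were Tox -0.11 to 0.28, Nr4a1 -1.29 to 0.66, Nr4a2 -0.72 to 0.047, Nr4a3 -0.25 to 0.77, Egr1 -0.62 to 1.02, Egr2 -0.19 to 0.49, Egr3 -0.78 to 0.20, Nfatc1 -0.29 to 0.31 and Nfatc2 -0.21 to 0.40. Between cell types they were Nr4a1 -1.64 to 0.31 and Nr4a3 -0.91 to 0.11 in WT, and Nr4a2 -0.27 to 0.50 and Nr4a3 -0.31 to 0.045 in STAT3KO. Nr4a3 ranged from -0.40 to 0.061 between the numbers, and Nfatc3 from -0.026 to 0.10 for the effect by number. The cause of these changes was not tested.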
